A study of Mus musculus with 16 samples.

Results

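The transcripts described here are the long non-coding hosts of small nucleolar RNAs (snoRNAs) Zfas1, Gas5, Snhg1, Snhg3, Snhg5, Snhg6, Snhg8 and Snhg12, 8 genes in all. They were chosen by their tumour levels: earlier results of these arrays showed them higher in tumours than in non-tumour liver. Only array rows annotated with a single gene symbol were used, and where a gene had several the brightest, by its average on all 16 arrays, was taken. By this rule 6 of the 8 had a row, out of 22180 genes with a row of 1 symbol. The rows that name Gas5 and Snhg8 each carry a second symbol, so no level is given for these 2 transcripts. All 6 passed the filter on low values (above the array's median in at least 4 of the 16 arrays), as did 13555 genes in all. Snhg5 was above the array's median on 15 arrays and the other 5 on all 16.

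Liver was taken at 18 months of age from 4 MYC mice (MYC+/+, REG3A-/- in the labels) and 4 MYC/REG3A mice (MYC+/+, REG3A+/+). Both genotypes are on the C57BL/6J background and carry a C-MYC transgene that woodchuck hepatitis virus sequences drive in the liver, and MYC/REG3A mice carry a REG3A transgene as well, which encodes a secreted lectin. From each animal a tumour and a sample of the non-tumour tissue were hybridised to separate 1-colour Affymetrix arrays, so there are 4 groups of 4 arrays. The non-tumour liver also carries the transgenes, and tissue without MYC is not analysed here.

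A snoRNA host is transcribed, spliced and, from its introns, releases snoRNAs, which pair with ribosomal RNA and guide its methylation (box C/D) or pseudouridylation (box H/ACA). Many hosts have no protein-coding role, begin with a tract of pyrimidines like the messengers of ribosomal proteins (5′ TOP), and are degraded by nonsense-mediated decay, so their spliced RNA is usually short-lived. Gas5 was found through its accumulation in growth-arrested cells, and Snhg1 was the first such host described, for the snoRNA U22.

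The start regions of the hosts are shown as a description, and whether the hosts share a regulator was not tested. RefSeq windows of 250 bases before and 50 after the annotated start (GRCm38.p6) were found for 5 of the 6 measured transcripts. They lie at chr2:167062684-167062983 (Zfas1, + strand), chr19:8723237-8723536 (Snhg1, + strand), chr4:132353637-132353936 (Snhg3, - strand), chr9:88522848-88523147 (Snhg5, - strand) and chr4:132308428-132308727 (Snhg12, + strand). Each is printed 5′ to 3′ on the strand of the gene. Capitals mark every match, on either strand, to the E-box CACGTG that MYC and MAX bind, its variant CACGCG, the CCAAT box CCAAT, the GC box GGGCGG and the TATA box TATAAA.
Zfas1: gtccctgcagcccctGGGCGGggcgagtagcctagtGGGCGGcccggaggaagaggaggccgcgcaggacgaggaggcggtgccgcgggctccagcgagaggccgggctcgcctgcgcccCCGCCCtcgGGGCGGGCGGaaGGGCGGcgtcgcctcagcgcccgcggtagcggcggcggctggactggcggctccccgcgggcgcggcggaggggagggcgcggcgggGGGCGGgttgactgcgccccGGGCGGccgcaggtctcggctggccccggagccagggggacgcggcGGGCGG
Snhg1: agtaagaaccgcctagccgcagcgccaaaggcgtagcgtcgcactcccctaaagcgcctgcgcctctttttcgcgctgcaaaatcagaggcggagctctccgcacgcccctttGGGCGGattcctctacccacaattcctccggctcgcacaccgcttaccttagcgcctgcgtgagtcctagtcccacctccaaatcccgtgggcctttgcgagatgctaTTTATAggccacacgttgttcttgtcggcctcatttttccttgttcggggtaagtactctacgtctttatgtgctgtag
Snhg3: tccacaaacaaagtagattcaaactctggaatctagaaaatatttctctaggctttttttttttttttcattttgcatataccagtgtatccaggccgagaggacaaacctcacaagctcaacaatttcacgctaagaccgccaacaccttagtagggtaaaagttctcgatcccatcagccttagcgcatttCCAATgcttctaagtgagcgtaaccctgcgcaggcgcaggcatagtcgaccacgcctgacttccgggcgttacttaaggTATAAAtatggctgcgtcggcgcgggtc
Snhg5: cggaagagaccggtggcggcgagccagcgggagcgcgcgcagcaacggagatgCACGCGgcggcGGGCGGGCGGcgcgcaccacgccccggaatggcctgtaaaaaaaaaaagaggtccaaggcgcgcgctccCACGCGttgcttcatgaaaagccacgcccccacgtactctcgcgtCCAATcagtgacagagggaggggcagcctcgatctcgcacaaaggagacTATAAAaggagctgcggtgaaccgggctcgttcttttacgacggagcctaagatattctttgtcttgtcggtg
Snhg12: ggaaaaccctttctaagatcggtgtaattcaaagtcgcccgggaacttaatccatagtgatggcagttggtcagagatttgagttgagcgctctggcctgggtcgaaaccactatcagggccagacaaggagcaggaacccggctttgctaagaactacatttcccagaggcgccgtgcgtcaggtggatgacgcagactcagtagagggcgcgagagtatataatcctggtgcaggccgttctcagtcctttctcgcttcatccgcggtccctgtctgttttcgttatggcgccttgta
The E-box CACGTG is in 0 of these 5 windows, against 7.15% of all 32851 RefSeq windows of this length. The variant CACGCG is in 1 of them (9.27% of all windows), with 2 matches in Snhg5. The TATA box is in 3 windows (13.6% of all), at 23 bases before the start in Snhg5, 29 before it in Snhg1, there on the opposite strand, and 23 after it in Snhg3. The CCAAT box is in 2 windows (37.4% of all), those of Snhg3 and Snhg5. The GC box is in 3 (35.7% of all), with 9 matches in Zfas1, 2 of them overlapping, 2 overlapping matches in Snhg5 and 1 match in Snhg1. The window of Zfas1 is 83.0% G and C and that of Snhg3 46.0%. From the annotated start, 0 of the 5 windows begin with C and 4 more pyrimidines, a pattern at 2.51% of all annotated starts. Of the 3 windows of the hosts without a measured level, 2 do, 1 of the 2 windows of Gas5 and that of Snhg8. Snhg12 begins with a run of 6 pyrimidines whose first base is T, and Snhg1 with a run of 3 whose first base is C. Whether the annotated starts are those used in these livers was not tested. The search covers only the letters named and this window, so other motifs and sites farther away were not looked for.

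In both genotypes the 6 measured hosts were higher in the tumour than in the non-tumour liver of the same mouse, in all 8 mice. Because these genes were proposed with the tumour contrast known, their tumour changes are given as a description and not as a test result. Where limma calls on the hosts are counted for this contrast, the counts are description too and lend no support. Levels are on the log2 scale as deposited, where a difference of 1 is a 2-fold change, and levels of different genes are not compared.

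**Figure D1:**
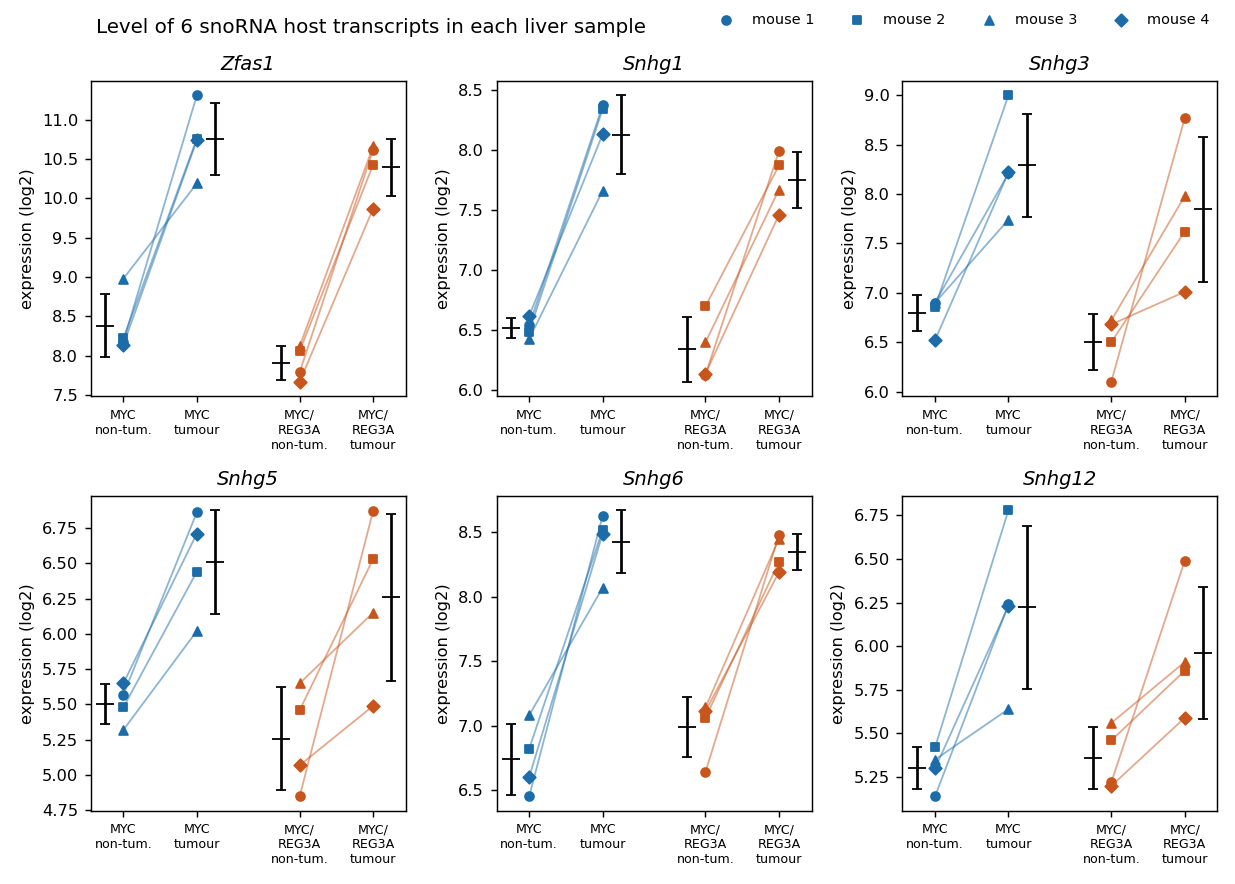
Level (log2 expression, vertical axes, which do not start at 0) of the 6 snoRNA host transcripts in each of the 16 liver samples, with MYC mice in blue and MYC/REG3A mice in orange. Lines join the 2 samples of a mouse, marker shapes give the mouse number, and black bars give mean ± SD of 4 samples. Every line rises, and only for Snhg5 in MYC/REG3A mice do the ranges of tumour and non-tumour liver overlap.

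Zfas1 lies antisense to the 5′ end of the helicase gene Znfx1 and hosts snoRNAs of the Snord12 group. In MYC mice 1 to 4 its level was 8.18, 8.22, 8.98 and 8.14 in non-tumour liver and 11.31, 10.76, 10.19 and 10.74 in the tumours. MYC/REG3A mice 1 to 4 had 7.79, 8.06, 8.12 and 7.67 in non-tumour liver and 10.62, 10.43, 10.66 and 9.87 in the tumours. Tumours and non-tumour livers did not overlap in either genotype, with gaps of 1.21 and 1.75 between the groups. The mean change was 2.37 ± 0.819 (SD, n = 4 mice), or 5.17-fold, in MYC mice and 2.49 ± 0.269 (SD, n = 4 mice), or 5.60-fold, in MYC/REG3A mice. By size of change Zfas1 ranked 28th of 13555 tested genes in MYC mice and 10th in MYC/REG3A mice, counted from the largest rise. The other measured hosts ranked from 116th (Snhg6) to 690th (Snhg12) in MYC mice. In MYC/REG3A mice they ranked from 131st (Snhg1) to 929th (Snhg12).

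A second array row of Zfas1, dimmer on average (7.14 against 9.36 over the 16 arrays), gave mean changes of 2.79 ± 0.174 (SD, n = 4 mice) in MYC mice and 2.68 ± 0.756 (SD, n = 4 mice) in MYC/REG3A mice. The rows parted for MYC mouse 3, whose tumour change was 1.21 by the first row and 2.68 by the second. Its non-tumour liver was the highest of the 4 MYC livers by the first row (8.98) and the lowest by the second (5.35). In the second row, too, tumours and non-tumour livers did not overlap in either genotype.

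Snhg1 hosts a series of box C/D snoRNAs that includes Snord22. Its level in MYC mice 1 to 4 was 6.54, 6.49, 6.43 and 6.62 in non-tumour liver and 8.37, 8.34, 7.66 and 8.13 in the tumours. In MYC/REG3A mice 1 to 4 the non-tumour levels were 6.13, 6.70, 6.40 and 6.14 and the tumour levels 7.99, 7.87, 7.67 and 7.46. The groups did not overlap, and the 4 MYC non-tumour livers had an SD of only 0.0781. The change was 1.60 ± 0.29 (SD, n = 4 mice) in MYC mice and 1.4 ± 0.308 (SD, n = 4 mice) in MYC/REG3A mice, which are 3.04-fold and 2.65-fold.

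Snhg3 carries Snora73a and Snora73b, the 2 genes of the U17 snoRNA, which acts in the cleavage of precursor ribosomal RNA rather than in its modification. In MYC mice 1 to 4 Snhg3 stood at 6.90, 6.86, 6.90 and 6.52 in non-tumour liver and at 8.21, 9.0, 7.74 and 8.22 in the tumours. The MYC/REG3A mice 1 to 4 were at 6.10, 6.50, 6.72 and 6.68 and, in the tumours, at 8.77, 7.62, 7.98 and 7.01. The groups did not overlap, yet the tumours of MYC/REG3A mice had an SD of 0.733, and mouse 4 changed by 0.33 where mouse 1 changed by 2.66. The mean change was 1.5 ± 0.553 (SD, n = 4 mice) in MYC mice and 1.34 ± 0.97 (SD, n = 4 mice) in MYC/REG3A mice.

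Snhg5 is the host of the box C/D snoRNA U50. Its non-tumour levels were 5.57, 5.48, 5.32 and 5.65 in MYC mice 1 to 4 and its tumour levels 6.86, 6.44, 6.02 and 6.71. The MYC/REG3A mice 1 to 4 had 4.85, 5.46, 5.65 and 5.07 in non-tumour liver and 6.87, 6.53, 6.15 and 5.49 in the tumours. The groups were apart in MYC mice, by 0.36, and overlapped in MYC/REG3A mice, where the tumour of mouse 4 was below the non-tumour liver of mouse 3. The changes averaged 1.0 ± 0.244 (SD, n = 4 mice) and 1.01 ± 0.738 (SD, n = 4 mice). The largest, 2.03 in MYC/REG3A mouse 1, started from a non-tumour level of 4.85, below the array medians (4.90 to 4.97). Leaving out 1 mouse moved the MYC/REG3A mean to between 0.67 and 1.2.

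Snhg6 hosts Snord87. In MYC mice 1 to 4 its level was 6.45, 6.82, 7.08 and 6.60 in non-tumour liver and 8.63, 8.52, 8.07 and 8.49 in the tumours, and in MYC/REG3A mice it was 6.64, 7.06, 7.14 and 7.11 and 8.48, 8.27, 8.45 and 8.19. The groups were at least 0.99 apart in both genotypes, and the MYC/REG3A tumours had the smallest tumour SD among the 6 transcripts, 0.142. The change was 1.69 ± 0.507 (SD, n = 4 mice) in MYC mice and 1.36 ± 0.336 (SD, n = 4 mice) in MYC/REG3A mice, or 3.23-fold and 2.56-fold.

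Snhg12 holds 4 snoRNAs, Snora16a, Snora44, Snora61 and Snord99, and changed least of the 6 on average. Its level in MYC mice 1 to 4 was 5.14, 5.42, 5.35 and 5.30 in non-tumour liver and 6.24, 6.78, 5.64 and 6.23 in the tumours. In MYC/REG3A mice 1 to 4 it was 5.22, 5.46, 5.56 and 5.20 in non-tumour liver and 6.49, 5.86, 5.91 and 5.59 in the tumours. The groups did not overlap, but in MYC/REG3A mice the gap was only 0.03. The mean change was 0.92 ± 0.452 (SD, n = 4 mice) in MYC mice and 0.60 ± 0.445 (SD, n = 4 mice) in MYC/REG3A mice, where mouse 1 changed by 1.27 and the other 3 by 0.35 to 0.40.

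Across all genes, limma with the mouse as a block and Benjamini-Hochberg adjustment over the tested genes placed 17.4% of them past an adjusted p of 0.05 as higher in MYC tumours and 7.58% as higher in MYC/REG3A tumours (33.2% and 12.5% in either direction). All 6 measured hosts were among the former, and 5, without Snhg12, among the latter, a count that the choice of the genes had already used. Without MYC/REG3A mouse 1, and likewise without mouse 3, the second count was 3, and Zfas1, Snhg1 and Snhg6 were the transcripts still past the threshold. It was 4 without mouse 2, where Snhg5 was lost at an adjusted p = 0.0544 in limma. In both genotypes 6.92% of genes were called higher, and 5 of the 6 hosts were. On the first principal component, which held 49.2% of the variance, MYC/REG3A tumours 2 and 4 had scores of -4.2 and 2.6, between the non-tumour livers (-31 to -26.4) and the other 6 tumours (32.7 to 42.3). Without these 2 mice the count in MYC/REG3A mice was again 5, and the changes were 2.69 for Zfas1, 1.56 for Snhg1, 1.96 for Snhg3, 1.27 for Snhg5, 1.58 for Snhg6 and 0.81 for Snhg12. In tissue samples, more cells that express a host and more of its RNA per cell cannot be told apart.

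Tumour and non-tumour levels did not overlap for 6 of the 6 hosts in MYC mice and for 5 in MYC/REG3A mice, where 16% and 11.2% of all tested genes were likewise higher without overlap.

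In the rows used, the mice kept a similar order across the hosts. In MYC mice the smallest of the 4 changes fell in mouse 3 for all 6 transcripts. In MYC/REG3A mice the largest fell in mouse 1 for all 6 and the smallest in mouse 4 for 4 of them. By the second row of Zfas1 the smallest changes were in MYC mouse 1 (2.61) and MYC/REG3A mouse 2 (2.0). On the first principal component of all tested genes, MYC tumour 3 also scored lowest of the MYC tumours (32.7, against 36.9 to 42.3). MYC/REG3A tumours 1 to 4 scored 42.2, -4.2, 35.9 and 2.6 there. Whether the order is particular to the hosts was not tested. The median change over the 6 was 1.57, 1.77, 0.92 and 1.61 in MYC mice 1 to 4 and 1.94, 1.15, 1.26 and 0.75 in MYC/REG3A mice 1 to 4. After the group means were subtracted, the 15 pairs of transcripts correlated over the 16 arrays at r = 0.47 to 0.87, with a median of 0.60, and over the 8 tumours at 0.60 to 0.94, with Snhg3 and Snhg12 as the closest pair. These r describe arrays that share mice and a common normalisation, and carry no test.

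**Figure D2:**
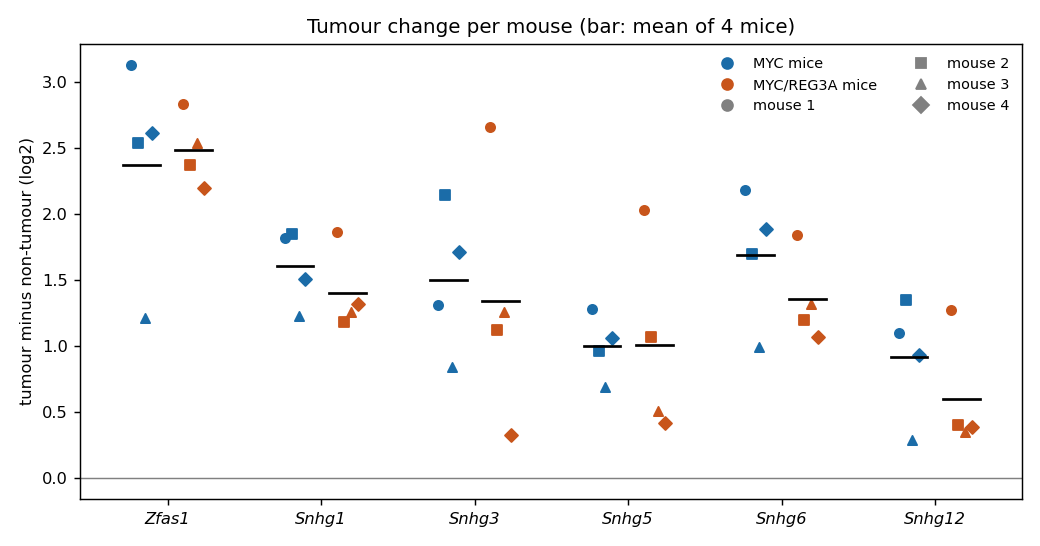
Tumour minus non-tumour level (log2, vertical axis) in each mouse for the 6 snoRNA host transcripts, with MYC mice in blue, MYC/REG3A mice in orange, marker shapes for the mouse number and a black bar for the mean of 4 mice. All 48 points lie above 0. In the rows used, MYC mouse 3 is lowest in its genotype for each transcript and MYC/REG3A mouse 1 highest.

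The snoRNAs inside these hosts can be read separately where they have rows of their own. The RefSeq table places 29 snoRNA genes inside the 8 hosts, and 9 of these had an array row of 1 symbol, all of them tested. A snoRNA row cannot tell the mature snoRNA from the unspliced host transcript that holds it. In MYC tumours 6 of the 9 rose by limma and 0 fell (median change of the 9, 1.06), and in MYC/REG3A tumours 4 rose and 0 fell (median 0.82). Over all tested genes the medians were -0.03 and -0.02, and 17.4% and 7.58% were called higher. Without MYC/REG3A mouse 1, and likewise without mouse 3, 1 of the 9 passed in MYC/REG3A mice, and without MYC mouse 3, which enters the shared estimate of the spread, 7 did.

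Both U17 genes in Snhg3 rose in both genotypes. Snora73a stood at 6.97, 6.64, 7.23 and 6.86 in the non-tumour livers of MYC mice 1 to 4 and at 9.08, 8.84, 8.20 and 8.83 in the tumours. It rose by 1.81 in MYC mice (SE 0.258, limma adjusted p = 0.00136, higher in 4 of 4 mice) and by 1.31 in MYC/REG3A mice (SE 0.258, adjusted p = 0.0155, higher in 4 of 4), beside changes of 1.5 and 1.34 in its host. Snora73b rose by 1.77 and 1.20 (SE 0.23 in both). The 2 genes are near-identical copies, so their rows may share signal.

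Snord47 lies in Gas5 and is the only snoRNA of that host with a row of 1 symbol. It does not give the level of Gas5 itself, whose own row was set aside for its second symbol. It stood at 7.68, 7.06, 7.77 and 6.82 in the non-tumour livers of MYC mice 1 to 4 and at 9.22, 9.12, 8.36 and 9.28 in their tumours, and at 6.98, 7.10, 6.89 and 7.0 and 8.64, 8.67, 9.24 and 8.29 in MYC/REG3A mice. The groups did not overlap in either genotype. Snord47 rose by 1.66 in MYC mice (SE 0.268, limma adjusted p = 0.00219) and by 1.72 in MYC/REG3A mice (SE 0.268, adjusted p = 0.00713), in 4 of 4 mice each. Snord22 of Snhg1 and Snord87 of Snhg6 rose in MYC tumours by 1.06 and 1.19 (SE 0.237 and 0.298). These 2 differed in MYC/REG3A mice by 0.82 and 0.80 (SE 0.237 and 0.298) and did not pass, at adjusted p = 0.0506 and 0.103.

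The 4 snoRNAs of Snhg12 did not give a single answer. Snord99 rose in both genotypes, by 0.87 and 0.91 (SE 0.18 in both, limma adjusted p = 0.00588 and 0.0156). Snora16a differed by 0.95 and 0.80 (SE 0.334, adjusted p = 0.0523 and 0.142), Snora44 by 0.43 and 0.35 (SE 0.245, adjusted p = 0.204 and 0.368) and Snora61 by 0.11 and 0.02 (SE 0.134, adjusted p = 0.572 and 0.955), and none of these passed. Whether the 4 differ from each other was not tested.

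MYC mouse 3 stood low here as well. Its change was the smallest of the 4 MYC mice for 8 of the 9 snoRNAs, with a median of 0.06 against 1.33 to 1.55 in the other 3, and for 43 of the 60 tested snoRNAs of the whole array. Over those 60 its non-tumour liver had the highest mean level of the MYC livers, 7.58 against 7.13 to 7.33, and its tumour the lowest of the MYC tumours, 7.71 against 7.96 to 8.16. Among MYC/REG3A mice the smallest change was in mouse 4 for 8 of the 9 and for 38 of the 60. Over all 60, 34 rose and 2 (Snord118 and Snord71, named after their values were seen) fell in MYC tumours (median 0.62), and 27 rose and 0 fell in MYC/REG3A tumours (median 0.68). Of all tested genes 17.4% were called higher and 15.8% lower in MYC tumours, and 7.58% and 4.88% in MYC/REG3A tumours. This wider set of snoRNAs was looked at after the hosts' values were known.

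**Figure D3:**
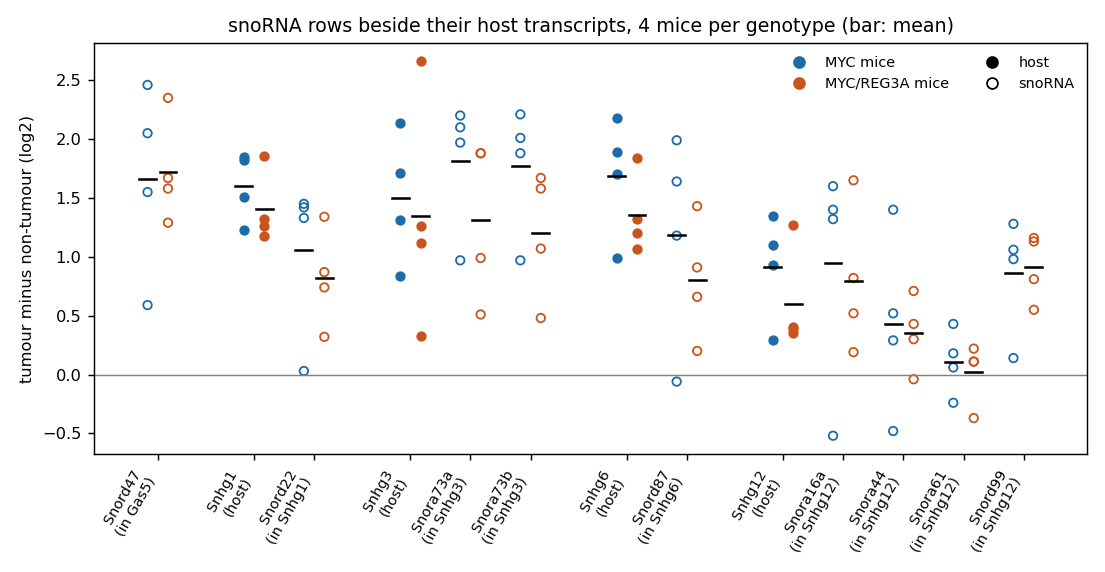
Tumour minus non-tumour level (log2, vertical axis) of 9 snoRNAs (open circles) beside their host transcripts (filled circles) in MYC mice (blue) and MYC/REG3A mice (orange), 1 point per mouse and a black bar for the mean of 4 mice. The U17 genes Snora73a and Snora73b and Snord47 lie highest among the snoRNAs by mean, and Snora61 lies around 0.

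Genes of the proteins that bind snoRNAs rose alongside, and their counts stand beside 17.4% of all tested genes called higher in MYC tumours and 7.58% in MYC/REG3A tumours. Of 8 listed core proteins of box C/D and H/ACA particles 7 were tested, and all 7 rose in both genotypes (median changes 1.4 and 1.29). Nop56, a box C/D core protein whose own gene hosts snoRNAs, rose by 1.96 in MYC mice and 1.48 in MYC/REG3A mice (SE 0.22 in both). Nhp2, an H/ACA protein, rose by 1.83 and 1.30 (SE 0.144), Dkc1, the pseudouridine synthase, by 1.4 and 0.88 (SE 0.172), and Snu13, which starts box C/D assembly, by 1.26 and 1.07 (SE 0.119). Of 12 assembly factors 6 rose in MYC tumours and 3 in MYC/REG3A tumours, with 0 lower and medians of 0.56 and 0.31. Among them Nolc1, a nucleolar chaperone, rose by 0.98 and 0.69 (SE 0.156), and Ruvbl2, an ATPase of the assembly complex, by 0.81 and 0.47 (SE 0.102). Rpap3 and Tcof1 rose in MYC mice by 0.78 and 0.70 (SE 0.116 in both) and differed by 0.39 and 0.32 in MYC/REG3A mice without passing (limma adjusted p = 0.054 and 0.0948). In that genotype 5 core proteins passed without mouse 1 and likewise without mouse 3, and the assembly factors that passed numbered 0 without mouse 1 and 1 without mouse 3 or mouse 4.

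Other snoRNA hosts rose as well, and their counts stand beside 17.4% of all tested genes called higher in MYC tumours and 7.58% in MYC/REG3A tumours. Of 10 tested non-coding hosts outside the 6, 6 rose and 0 fell in MYC tumours (median 0.87), and 5 rose and 0 fell in MYC/REG3A tumours (median 0.68), a count that was 1 without MYC/REG3A mouse 3 and 2 without mouse 1. Snhg4 rose by 1.87 and 1.32 (SE 0.247), Epb41l4aos by 1.59 and 1.27 (SE 0.259), Snhg15 by 1.47 and 0.90 (SE 0.135) and Snhg7 by 1.33 and 0.97 (SE 0.176). Of 21 protein-coding hosts 14 rose and 1, Ap1g1, fell in MYC tumours (median 0.69), and 10 rose and 0 fell in MYC/REG3A tumours (median 0.44, 6 higher without mouse 1 and likewise without mouse 3). Taf1d, a subunit of the RNA polymerase I factor SL1 and host of several snoRNAs, rose by 2.11 and 1.62 (SE 0.219), and Wdr43, of the small-subunit processome, by 1.17 and 0.87 (SE 0.123). Of 15 tested 5′ TOP genes that are not ribosomal proteins 10 rose and 0 fell in either genotype (medians 0.89 and 0.62; in MYC/REG3A mice 5 without mouse 1 and 6 without mouse 3). Npm1, a nucleolar chaperone of ribosome assembly, rose by 1.44 and 1.15 (SE 0.187), the elongation factor gene Eef1b2 by 1.42 and 1.14 (SE 0.175), and the initiation factor genes Eif3h by 1.03 and 0.85 (SE 0.116) and Eif4b by 1.0 and 0.64 (SE 0.112). Some genes stand in more than 1 of these lists, such as Nop56 and Eef1b2. These lists too were drawn up with results of these arrays known.

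The factors of nonsense-mediated decay, which degrades many spliced hosts, were read from a list of their own. Of 11 tested factors 2 rose and 0 fell in MYC tumours (median 0.14), a share near the 17.4% of all tested genes called higher there, and in MYC/REG3A tumours 0 rose and 0 fell by limma (median 0.03, lowest adjusted p = 0.0917, in Smg6). Nbas rose by 0.41 (SE 0.104) and Smg5 by 0.55 (SE 0.165) in MYC tumours, and in MYC/REG3A tumours they differed by 0.11 and 0.31. Smg6 differed by -0.17 and -0.33 (SE 0.118), and Smg1, the kinase of the pathway, by 0.28 and 0.23 (SE 0.107). The count in MYC tumours was 0 without MYC mouse 1 and likewise without mouse 2, and 3 without mouse 3.

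**Figure D4:**
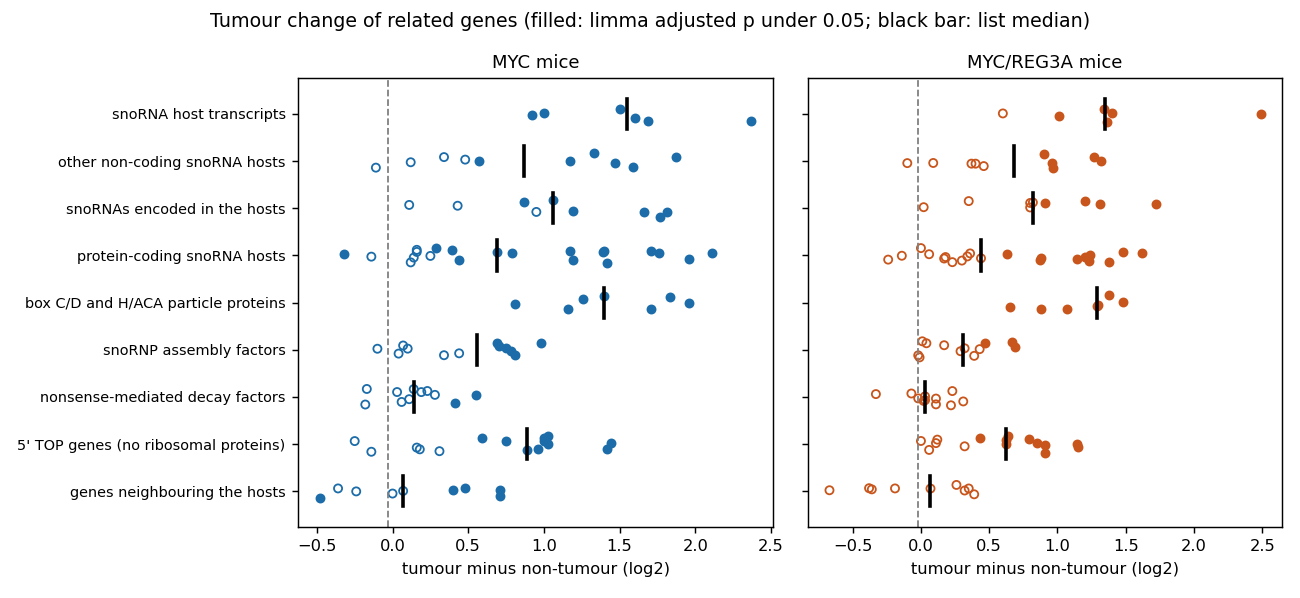
Tumour minus non-tumour difference (log2, horizontal axis) of each tested gene in 9 lists, with MYC mice on the left and MYC/REG3A mice on the right. Filled circles are genes past a limma adjusted p of 0.05, black bars are list medians and the dashed line is the median of all 13555 tested genes (-0.03 and -0.02). The 6 host transcripts and the particle proteins have the highest medians, 1.55 and 1.4 in MYC mice. The hosts were chosen with this contrast known, so their place among the lists is no test result.

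Some genes next to the hosts rose in tumours and 1 fell. Of 9 tested neighbours on the list 4 rose and 1 fell in MYC tumours (median 0.07), where 17.4% of all tested genes were called higher and 15.8% lower. In MYC/REG3A tumours 0 rose and 0 fell (median 0.07, lowest limma adjusted p = 0.0544), against 7.58% and 4.88% of all genes. The list does not hold every coding gene next to a host. The RefSeq table gives 9 more, of which 6 were tested, and 2 of these rose in MYC tumours (median 0.20) and 1 in MYC/REG3A tumours (median 0.01), with 0 lower. The RNA helicase gene Ddx27, near Zfas1, rose by 1.09 in MYC mice (SE 0.157, limma adjusted p = 0.00142, higher in 4 of 4 mice) and by 0.69 in MYC/REG3A mice (SE 0.157, adjusted p = 0.0232, higher in 4 of 4). The kinase gene Sgk3, near Snhg6, rose by 0.69 in MYC mice (SE 0.167, adjusted p = 0.0119) and differed by 0.38 in MYC/REG3A mice (adjusted p = 0.16). Both were named after their values were seen. The listed neighbour that fell was Znfx1, which the RefSeq table places across Zfas1 on the opposite strand. Znfx1 stood at 8.40, 8.09, 8.15 and 8.48 in the non-tumour livers of MYC mice 1 to 4 and at 7.72, 7.75, 7.90 and 7.84 in their tumours, a fall of 0.48 (SE 0.108, limma adjusted p = 0.0087, lower in 4 of 4 mice). For MYC/REG3A mice the difference was -0.36 (SE 0.108, adjusted p = 0.0544, lower in 4 of 4). Slc3a2, the amino acid transporter subunit that is transcribed away from Snhg1, differed by -0.36 and -0.38 (SE 0.187, adjusted p = 0.163 and 0.202). Zbtb37, which overlaps Gas5, differed by -0.24 and -0.19 (SE 0.1), and Prss12, next to Snhg8, by 0.00 and 0.07 (SE 0.155). Tcf24, near Snhg6, differed by 0.07 and -0.67 (SE 0.475).

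The 4 listed neighbours that rose in MYC tumours lie beside Snhg3, Snhg1, Snhg5 and Snhg12. Rcc1, the exchange factor of Ran, lies beside Snhg3 and rose by 0.71 (SE 0.116). Wdr74, a ribosome assembly factor beyond Snhg1, rose by 0.71 (SE 0.123), Syncrip, beside Snhg5, by 0.48 (SE 0.15) and Trnau1ap, beside Snhg12, by 0.40 (SE 0.122). In MYC/REG3A tumours these 4 differed by 0.26, 0.39, 0.32 and 0.35 and did not pass (limma adjusted p = 0.171, 0.0644, 0.183 and 0.0866). The differences between neighbour and host were not tested.

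The array row of Myc did not rise. It stood at 7.92, 7.78, 7.61 and 7.41 in the non-tumour livers of MYC mice 1 to 4 and at 7.09, 7.24, 7.17 and 6.84 in the tumours, a fall of 0.59 (SE 0.127, limma adjusted p = 0.00673, lower in 4 of 4 mice). In MYC/REG3A mice 1 to 4 it stood at 6.99, 9.24, 7.69 and 7.97 in non-tumour liver and at 7.10, 9.37, 7.26 and 7.58 in the tumours, high in both samples of mouse 2, and differed by -0.14 (SE 0.127, adjusted p = 0.486). Whether this row reads the transgene is not given in the sources used here. Max, the partner of MYC in DNA binding, rose by 0.70 and 0.68 (SE 0.104, adjusted p = 0.00151 and 0.00713), and Mxd4 and Mxi1, which compete for Max, differed by 0.27 and 0.25 in MYC mice and by 0.23 and 0.24 in MYC/REG3A mice without passing. Of the 7 tested genes of this list 1 rose and 1 fell in MYC tumours, shares near the 17.4% and 15.8% of all tested genes called higher and lower there. In MYC/REG3A tumours 1 rose and 0 fell, against 7.58% and 4.88% of all tested genes.

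The genotype contrasts did not choose these genes and were tested. In limma 0 of the 6 hosts passed in any of the 3 contrasts. At an unadjusted p under 0.05 there were 0 in non-tumour liver, 1 in tumours (Snhg1) and 0 for the difference of the tumour change. Over all tested genes the share called was 0.0% in non-tumour liver (0 genes, 739 at an unadjusted p under 0.05), 0.0221% in tumours (Gas1, Lpcat4 and Trim43c, 1437 genes at an unadjusted p under 0.05) and 0.00738% for the difference of the change (Trim43c, 756 at an unadjusted p under 0.05). Simulated data with these arrays' spread had 200 of the 13555 genes changed at once. A true difference of 1 was recovered for 82.0% of them between non-tumour livers, 82.0% between tumours and 42.0% in the tumour change. One of 0.5 was recovered for 14.5%, 22% and 0.0%, so differences of that size were mostly not detectable with 4 mice per genotype. The adjustment is stricter where few genes pass, as in the real contrasts, so recovery of a host's difference would be lower there.

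In non-tumour liver Zfas1 was lower in every MYC/REG3A mouse (7.67 to 8.12) than in every MYC mouse (8.14 to 8.98), a difference of -0.47 (95% interval -0.98 to 0.04, limma adjusted p = 0.949). Groups were likewise apart for 3.88% of all tested genes, and in the second row of Zfas1 they overlapped. The other 5 hosts overlapped between genotypes, with differences from -0.29 for Snhg3 to 0.25 for Snhg6. In tumours all 6 overlapped, where 3.53% of all tested genes did not, and all 6 differences were below 0, from -0.45 for Snhg3 to -0.08 for Snhg6. Snhg1 had the lowest p there, with a difference of -0.38 (95% interval -0.73 to -0.03, unadjusted p = 0.0372, limma adjusted p = 0.451). Without MYC/REG3A mice 2 and 4 that difference was -0.30, and those of Snhg3, Snhg5 and Snhg6 were 0.08, 0.0 and 0.04.

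The tumour change itself differed between genotypes (MYC/REG3A minus MYC) by 0.12 for Zfas1 (95% interval -0.68 to 0.91), -0.20 for Snhg1 (-0.65 to 0.25), -0.16 for Snhg3 (-1.17 to 0.85), 0.01 for Snhg5 (-0.72 to 0.73), -0.33 for Snhg6 (-0.93 to 0.26) and -0.31 for Snhg12 (-0.93 to 0.30). Every interval includes 0, and those of Snhg3 also include a difference of more than 0.8 in either direction. Limma adjusted p-values were 0.897 to 0.998.

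**Figure D5:**
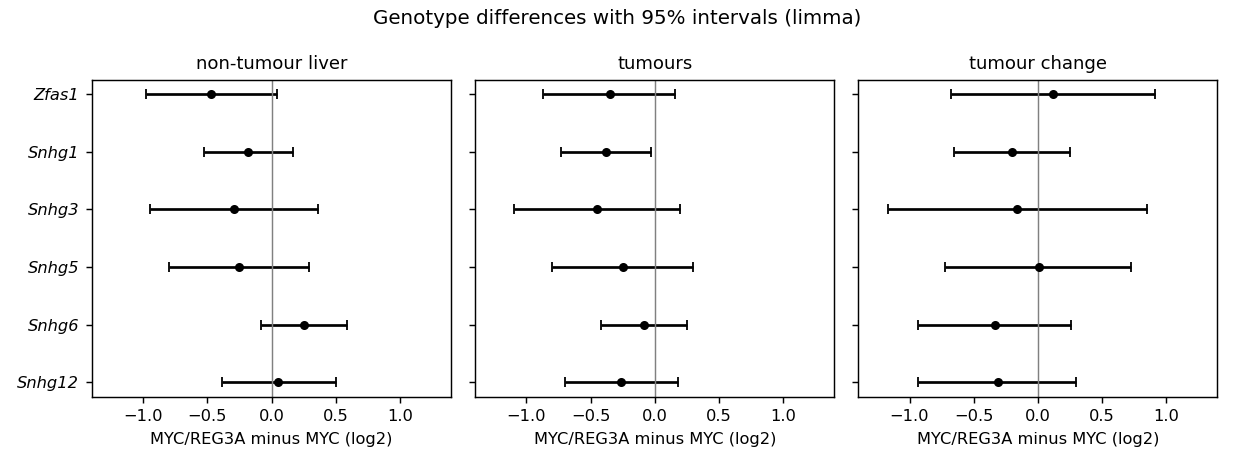
Differences between MYC/REG3A and MYC mice (log2, horizontal axis) for the 6 host transcripts in non-tumour liver, in tumours and in the tumour change, as limma estimates with 95% intervals. Intervals include 0 in all cases except Snhg1 in tumours, whose interval runs from -0.73 to -0.03.

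Among the other tested genes, those whose level followed Zfas1 most closely over the 16 arrays were the non-coding 2410006H16Rik and the ribosomal protein gene Rpl28 (r = 0.98 for both), then 1110038B12Rik, Rps27l and Rab26os (r = 0.97 for each). These values rest mostly on the step between tumour and non-tumour liver, which separates many genes, and by Spearman's rho 0 of these 5 stayed among the first 5. After subtraction of the group means, Zfas1 was followed most closely by Epb41l4aos (r = 0.90), Snora16a (0.88), Mnat1 and Snhg17 (0.86 for both) and Fxr1 (0.85), of which 4 were also among the first 5 by Spearman's rho. Epb41l4aos and Snhg17 are themselves on the list of other non-coding snoRNA hosts and Snora16a lies in Snhg12. For the mean of the 6 hosts the closest were Cdca7l, Rps9 and Mir1949 (r = 0.98 for each), Rab26os and Epb41l4aos (0.97 for both) on the levels, and Snora16a, Cnbp (0.92 for both), Kdm1a (0.89), Slc19a1 (0.88) and Matr3 (0.86) after subtraction. By Spearman's rho 1 of the former 5 and 2 of the latter 5 stayed among the first 5. The arrays share mice and normalisation, and no test is attached.

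The tissue labels and the other cell types were read from marker lists. The mean level of 7 hepatocyte markers was 11.97 to 12.18 in MYC non-tumour liver, 11.51 to 11.96 in MYC tumours, 12.10 to 12.18 in MYC/REG3A non-tumour liver and 11.67 to 12.12 in MYC/REG3A tumours. In MYC mice these ranges do not overlap between tumour and non-tumour liver, and 3 of the 7 fell in MYC tumours, the liver enzyme gene Tat by 0.99, Serpina1a by 0.63 and the liver transcription factor gene Hnf4a by 0.28 (SE 0.197, 0.172 and 0.0961). In MYC/REG3A tumours 1 fell, Serpina1a, by 0.72 (SE 0.172). Markers of dividing cells also rose in tumours, 8 of 8 tested in both genotypes (medians 1.78 and 1.97). Of all tested genes, 17.4% were called higher in MYC tumours and 7.58% in MYC/REG3A tumours. The median changes of these markers were 1.22, 1.82, 1.74 and 2.09 in MYC mice 1 to 4 and 3.01, 1.42, 1.55 and 1.87 in MYC/REG3A mice 1 to 4. The order of the mice was thus not that of the hosts throughout. MYC mouse 3, lowest for the hosts, was not lowest for these markers, and MYC mouse 1 was. MYC/REG3A mouse 4, lowest for the hosts, was above mice 2 and 3 for the markers, while MYC/REG3A mouse 1 was highest for both. Several lists of other cell types held markers that fell, where 15.8% of all tested genes were called lower in MYC tumours and 4.88% in MYC/REG3A tumours. These were 5 of 7 Kupffer cell, 6 of 7 sinusoidal endothelial, 6 of 7 stellate cell, 3 of 3 B and plasma cell, 3 of 3 neutrophil, 2 of 4 bile duct and 0 of 3 T and NK cell markers in MYC tumours, and 6, 4, 5, 2, 0, 0 and 0 of them in MYC/REG3A tumours. The part of hepatocytes, dividing cells and these other cell types in the hosts' changes was not tested.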

How the data were processed

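Values are the deposited log2 expression levels, which the authors computed with RMA; per the submitters' processing notes the software was Expression Console 1.4.1 of Affymetrix; settings and annotation build are not given in the sources used here, and that the scale is log2 follows from its lowest and highest values. RMA normally includes quantile normalisation across arrays, so changes are relative to the other genes. Of 41345 rows, 23521 had 1 gene symbol, 1814 several and 16010 none; 23328 of the first matched RefSeq (GRCm38.p6) by Entrez ID. A gene was tested when above the array's median in at least 4 of 16 arrays. No detection calls were used; precision is limited by how many arrays there are. The arrays had mean levels of 5.43 to 5.47, and 0 pairs were identical.

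limma 3.58.1 in R 4.3.3 (lmFit, eBayes, 2-sided, Benjamini-Hochberg over 13555 genes, threshold 0.05) was fitted to all 16 arrays and tested on simulated data. For tumour contrasts, and for how they differ by genotype, the model included a term per mouse (block), because a tumour and its non-tumour liver share an animal (correlation of a mouse's deviations from the group means 0.0963 to 0.325); genotypes were compared on group means. SE and intervals are limma's and pool the spread of all groups; SD is over 4 mice. All members, and up to 4 genes of lowest p in the other lists, are named, with every measured snoRNA inside a host and every listed neighbour with a tested row. Members and lists were chosen with earlier results of these data known. Alternatives covered the block, filter, row choice, centring, eBayes, array weights and leaving out mice.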

Additional observations from a re-analysis of the deposited data

Results flagged for a closer look

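Among 36 groups of 4 values (levels of 6 hosts in 4 groups and tumour changes in 2 genotypes), 4 had 1 value far from the other 3, where chance gives about 1 in 20. The changes are computed from the levels, so the groups are not independent. In the non-tumour livers of MYC mice, Zfas1 was high in mouse 3 (8.98, against 8.14 to 8.22), with a gap of 0.906 of the range, and Snhg3 was low in mouse 4 (6.52, against 6.86 to 6.90), with a gap of 0.904. By the second row of Zfas1 the liver of mouse 3 was instead the lowest (5.35, against 6.12 to 6.45). In MYC/REG3A non-tumour liver Snhg6 was low in mouse 1 (6.64, against 7.06 to 7.14), with a gap of 0.851. The tumour change of Snhg12 in MYC/REG3A mice was high in mouse 1 (1.27, against 0.35 to 0.40), with a gap of 0.945.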

How the results depend on the processing

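The tumour calls of the hosts only describe how the fit depends on its settings, because the choice of the genes had used that contrast. In MYC mice all 6 hosts were called in every alternative. In MYC/REG3A mice 5 were called in each alternative that kept all mice and in that without mice 2 and 4, and 3 to 6 when 1 mouse was left out. Without the replicate block 4419 and 1613 genes were called in MYC and MYC/REG3A tumours, against 4505 and 1690, with 6 and 5 hosts as before. Leaving out 1 mouse gave 2975 (without MYC mouse 4) to 4490 genes and 273 to 1849 genes, with 281, 273 and 944 without MYC/REG3A mouse 1, 3 and 4. For the difference of the change, where 1 gene was called, the count was 0 without the replicate block, without a filter, with the filter at 8 arrays and without MYC/REG3A mice 2 and 4, 3 with centred arrays and with array weights, and 0 to 2 when 1 mouse was left out. Between genotypes, leaving out 1 mouse gave 0 to 22 genes in non-tumour liver (22 without MYC mouse 2) and 3 to 114 in tumours (21 and 13 without MYC mouse 2 and 3, 114 without MYC/REG3A mouse 1), and 0 in tumours without MYC/REG3A mice 2 and 4. No host was called in these 3 contrasts under any alternative, and signs turned only in differences that were not called. Leaving out 1 mouse moved the difference of the change to -0.27 to 0.37 for Zfas1, -0.6 to 0.18 for Snhg3 and -0.33 to 0.2 for Snhg5, the non-tumour difference of Snhg12 to -0.01 to 0.11 and the tumour difference of Snhg5 to -0.45 to 0.01. Array weights turned the difference of the change of Snhg5 to -0.15. Without MYC/REG3A mice 2 and 4 that of Snhg3 was 0.46, and the tumour differences of Snhg3, Snhg5 and Snhg6 were 0.08, 0.0 and 0.04. The cause of these shifts was not tested. Whether low signal limits any host was not tested, and Snhg5 was not above the array's median on 1 of the 16 arrays.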
